A study of Mus musculus with 10 samples.

Results

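The genes described here are 32 genes of cholesterol and fatty acid synthesis, chosen by name: 7 enzymes that turn acetyl-CoA into farnesyl diphosphate, 11 that make sterol from it, 6 genes of control and sterol transport, and 8 genes of fatty acid synthesis. A member was measured where a probe set named it as the only gene, which held for 31 of the 32 among 19938 such genes on the array. Acat2, an acetyl-CoA acetyltransferase, had none and has no value. All 31 lay above the level filter and were tested with 15662 genes in all. The cells were c-Kit+ mouse acute myeloid leukaemia cells driven by the fusion MLL-AF9, a leukaemia-causing transcription regulator. Every line carried Cre-ER, a recombinase that works once 4-hydroxytamoxifen (4-OHT) is added. Lines 10949, 10950 and 10986 were Zfx fl/y, with a conditional allele of the X-linked transcription factor Zfx (fl lines), and lines 10977 and 10980 were Zfx wt/y (wt lines). Cells from each line spent 72 hours with 10 nM 4-OHT or with ethanol vehicle, then were sorted for c-Kit. All cultures held 20% serum and the cytokines IL-3 (10 ng/mL), IL-6 (10 ng/mL) and SCF (20 ng/mL). The 10 arrays were thus 3 pairs from fl lines and 2 pairs from wt lines, each pair being the vehicle and the 4-OHT culture of 1 line. Arrays follow the line order 10949, 10950, 10986 or 10977, 10980 wherever values are listed. The study, by its title, asked how deleting Zfx affects expression. Each line is 1 leukaemia, and the c-Kit gate removes cells that had lost that receptor. Which promoter drives Cre-ER is not stated in the labels.

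Cells build cholesterol from acetyl-CoA through mevalonate, farnesyl diphosphate, squalene and lanosterol, and build fatty acids from the same acetyl-CoA. The transcription factors encoded by Srebf1 and Srebf2 sit in the endoplasmic reticulum as inactive precursors bound to Scap. When sterol is low, Scap carries them to the Golgi, where proteases free the part that enters the nucleus and switches on most enzymes of both routes. When sterol is high, the Insig proteins hold Scap back, so the enzymes tend to move up or down as one programme. Insig1 is itself a target of the factors. In myeloid leukaemia cells, as in other dividing cells, the products serve as membrane lipid, and mevalonate also feeds protein prenylation.

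RefSeq promoter sequence (build GRCm38.p6) matched 25 of the 32 members. 4 motifs were searched on both strands in the 250 bases before the start site of a gene. The sterol regulatory element TCACNCCAC was in 1 of the 25 (4.0%, against 1.22% of 27025 genes), Hmgcs1. The NF-Y box CCAAT, read ATTGG on the other strand and bound by a factor that works beside the sterol factors, was in 19 (76.0%, against 37.5%). The E-box CACGTG was in 5 (20.0%, against 6.86%) and the ZFX core AGGCCT in 3 (12.0%, against 9.89%), namely Acly, Mvd and Pmvk. Both of these read the same on either strand, and a gene with several listed starts counted when any held the motif. A match only says that the letters are present. The sequences below are those of a member with the sterol element, 2 with an E-box, 1 with the ZFX core, and 2 further members described array by array below, Lss and Fads2. They run 5′ to 3′ on the gene's own strand, end at the base before the start site, and carry matches in capitals. The Fads2 window holds none of the 4 motifs. Promoter sequence was not used here for Scd1, Scd2, Fdft1, Sqle, Stard4, Fdps and Fads1.
Hmgcs1 (chr13:119690101-119690350, plus strand): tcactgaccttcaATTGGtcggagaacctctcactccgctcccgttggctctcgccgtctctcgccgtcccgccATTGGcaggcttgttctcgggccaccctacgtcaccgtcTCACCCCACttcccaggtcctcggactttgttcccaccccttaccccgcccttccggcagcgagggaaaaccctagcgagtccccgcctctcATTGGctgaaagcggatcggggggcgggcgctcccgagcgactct
Insig1 (chr5:28071162-28071411, plus strand): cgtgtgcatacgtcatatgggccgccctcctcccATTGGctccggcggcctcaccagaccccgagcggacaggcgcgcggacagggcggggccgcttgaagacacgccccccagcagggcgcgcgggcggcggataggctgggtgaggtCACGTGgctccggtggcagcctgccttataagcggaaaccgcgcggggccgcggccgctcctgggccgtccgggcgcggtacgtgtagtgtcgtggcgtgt
Hsd17b7 (chr1:169969206-169969455, minus strand): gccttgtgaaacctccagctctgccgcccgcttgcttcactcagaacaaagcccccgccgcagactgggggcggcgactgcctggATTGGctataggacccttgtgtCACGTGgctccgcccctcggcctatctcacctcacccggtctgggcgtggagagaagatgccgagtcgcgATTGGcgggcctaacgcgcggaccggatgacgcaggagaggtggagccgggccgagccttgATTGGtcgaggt
Mvd (chr8:122443423-122443672, minus strand): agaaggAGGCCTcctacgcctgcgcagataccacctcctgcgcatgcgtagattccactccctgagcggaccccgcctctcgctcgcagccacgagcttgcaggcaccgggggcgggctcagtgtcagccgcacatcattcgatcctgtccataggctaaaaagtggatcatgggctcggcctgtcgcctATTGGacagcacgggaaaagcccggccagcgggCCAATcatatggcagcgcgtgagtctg
Lss (chr10:76531355-76531604, plus strand): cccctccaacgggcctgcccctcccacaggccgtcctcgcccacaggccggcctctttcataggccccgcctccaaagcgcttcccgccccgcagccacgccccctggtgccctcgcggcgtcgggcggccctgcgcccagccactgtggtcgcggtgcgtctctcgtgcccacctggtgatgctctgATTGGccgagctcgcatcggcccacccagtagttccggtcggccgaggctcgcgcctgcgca
Fads2 (chr19:10101504-10101753, minus strand): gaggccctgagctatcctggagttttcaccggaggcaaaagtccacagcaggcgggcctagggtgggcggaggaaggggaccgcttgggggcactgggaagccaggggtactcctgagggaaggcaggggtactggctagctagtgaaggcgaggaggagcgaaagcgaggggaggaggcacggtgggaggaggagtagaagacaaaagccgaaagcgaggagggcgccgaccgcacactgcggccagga

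Levels are log2 of the deposited signal, and a change is the log2 level under 4-OHT minus that under vehicle. The array medians of the signal were 144.73 to 158.2, and precision is set by how few arrays there are. The vehicle array of line 10986 stood apart. Its mean correlation with the others over all genes was 0.961, against 0.979 to 0.985 for the other 9. The Zfx probe set did not show the deletion. It read 10.09, 9.63 and 9.24 in the fl lines under vehicle and 10.07, 9.98 and 10.02 under 4-OHT. Which part of the gene its probes cover was not examined, and how complete the deletion was in the sorted cells was not tested. All 12 listed progenitor markers lay above the level filter, including Kit, Cd34, Mpo and Elane, with list means of 10.97 to 11.46 over the arrays. Passing the filter does not by itself identify the cells. All 4 measured erythroid, all 6 mast cell and basophil and 6 of 8 fibroblast and endothelial markers passed it too. Flt3, 1 of the 12, read 6.44 to 6.66 in wt cells, near the filter of 6.23. Of 8 measured lymphoid markers 4 lay above it, Cd79b at a mean level of 10.17 and Cd3e, Cd8a and Pax5 at 7.03, 6.73 and 6.41, while Cd3g, Cd79a, Cd4 and Ncr1 lay below it. In bulk samples, fewer cells of a type and less RNA per cell cannot be told apart.

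No member passed the test in any of the 5 comparisons (limma, Benjamini-Hochberg adjusted p under 0.05). The share of all tested genes that passed was 0.153% for 4-OHT against vehicle in the fl lines, 0.0% in the wt lines, 0.0% for the difference between these changes, 0.0192% for fl against wt lines under vehicle and 0.645% under 4-OHT. At an unadjusted p under 0.05 the members numbered 6 of 31 in the fl lines (12.3% of all genes), 0 in the wt lines (0.147%) and 4 for the difference (5.82%). For fl against wt lines the numbers were 6 under vehicle (9.83%) and 3 under 4-OHT (10.8%). Within single lines, most members shared a direction in 3 of the 5 lines (10949, 10977 and 10980), and that direction was not the same in each.

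In line 10977, which is wild type, 27 of 31 members were lower under 4-OHT than under vehicle, against 49.2% of all genes. In line 10980, also wild type, 29 of 31 were higher, against 49.1% of all genes. The median change of the members was -0.32 in line 10977 and 0.33 in line 10980, where the medians over all genes were 0.0032 and -0.0029. Only Acly, Pmvk, Scap and Scd1 were higher in line 10977, and only Ebp and Tm7sf2 were lower in line 10980. Changes past 0.5 made up a larger share of the members than of all genes. There were 7 below -0.5 in line 10977 (0.824% of all genes) and 10 above 0.5 in line 10980 (0.638%). The 7 were Cyp51, Fads2, Fdft1, Lss, Msmo1, Nsdhl and Scd2, of which Fads2, Lss and Scd2 were also among the 10, with Dhcr7, Fads1, Fasn, Hmgcs1, Insig1, Mvd and Sqle. The mean levels of the marker lists of more mature myeloid cells went opposite ways in these lines too, and so did that of progenitors. From vehicle to 4-OHT, the mean log2 level of 15 monocyte and macrophage markers was 8.40 then 8.62 in line 10977, whereas line 10980 had 8.48 then 8.24. That of 10 late granulocyte markers was 9.14 then 9.40 in line 10977, whereas line 10980 had 8.54 then 8.06. For the 12 progenitor markers it was 11.16 then 11.31 in line 10977, whereas line 10980 had 11.44 then 11.26. Cd33 had the largest fall of these in line 10980, -1.19. Not every gene followed its list. Kit and Mpo of the progenitor list, and Irf8, Fcgr1, C1qa and C1qb of the monocyte and macrophage list, were higher in both lines. Cxcr2 of the late granulocyte list was lower in both. The part of any of these cell types in the members' changes was not tested. Each line has 1 pair of arrays, so a change in 1 line has no replicate check, and its members are not independent of each other.

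Among the fl lines, 10949 resembled line 10977. Of 31 members 27 were lower under 4-OHT, against 52.6% of all genes, and 8 lay below -0.5 (3.12% of all genes). The 8 were Cyp51, Fads2, Fasn, Insig1, Lss, Msmo1, Scd2 and Tm7sf2. Line 10950 was mixed, with 17 higher (57.5% of all genes) and only Scd1 above 0.5 (1.69%). Line 10986 split, with 18 of 31 lower (54.5%), 10 above 0.5 (19.5% of all genes) and 6 below -0.5 (5.57%). The 10 were Hmgcs1, Idi1, Cyp51, Msmo1, Nsdhl, Hsd17b7, Ebp, Insig2, Stard4 and Elovl6, 5 of them enzymes from squalene to sterol, and the 6 were Mvd, Lss, Fasn, Scd1, Scd2 and Fads2. This line holds the vehicle array that stood apart, and its changes were wide over all genes too, where their standard deviation (SD) was 0.497 in line 10986 and 0.174 to 0.263 elsewhere.

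**Figure D1:**
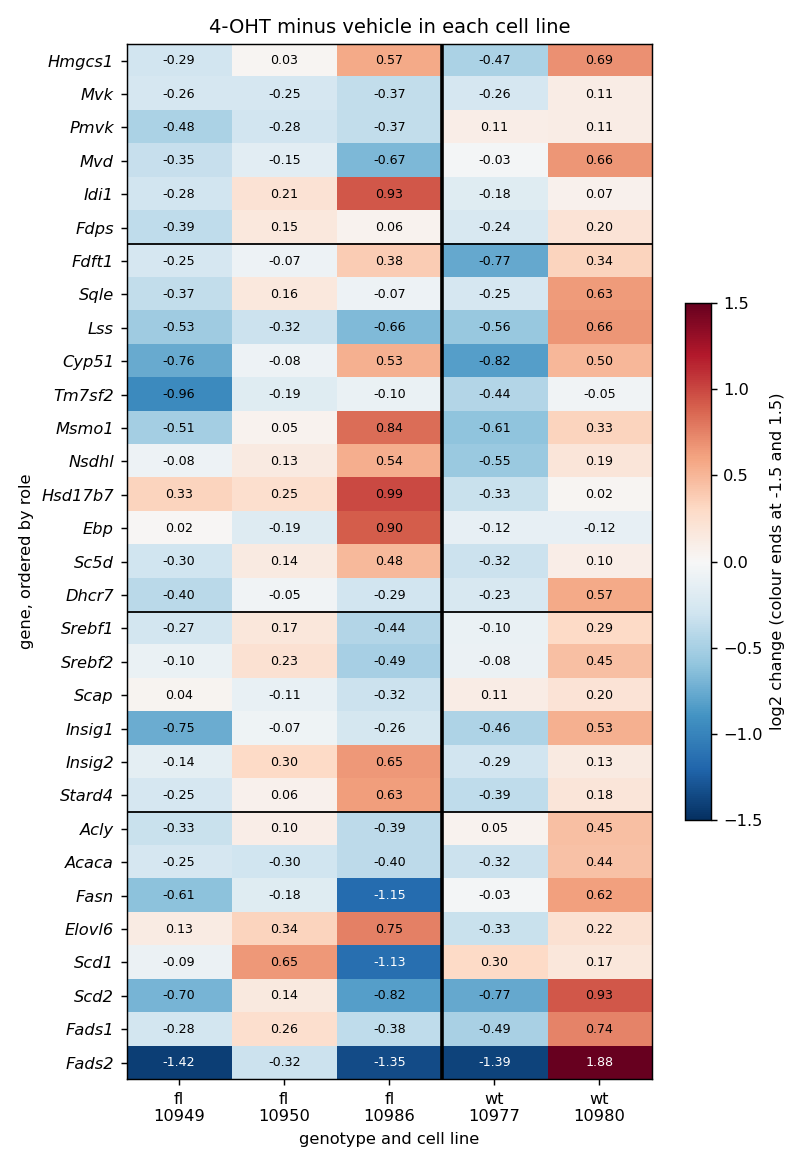
Log2 change, 4-OHT minus vehicle, of each measured member (rows, grouped by role) in each of the 5 lines (columns). Colour gives the sign and size of the change, ending at -1.5 and 1.5, and each cell prints its value. Line 10977 is lower in 27 of 31 members and line 10980 higher in 29 of 31.

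**Figure D2:**
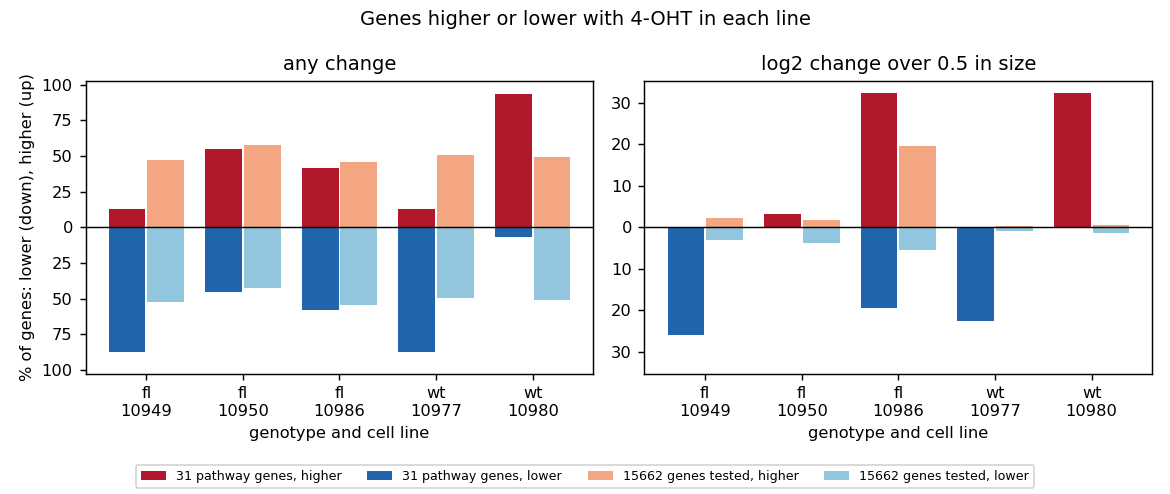
Share of members and of all 15662 tested genes with a higher or lower level under 4-OHT, by line, in percent, for any change in 1 panel and for changes past 0.5 in the other. The members' share that was lower was 87.1% in lines 10949 and 10977 and 6.45% in line 10980.

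Across the 31 members, the changes in lines 10949 and 10977, of different genotype, correlated at r = 0.58 (0.26 over all genes), and 25 of 31 had the same sign (56% of all genes). Line 10980 had r = -0.65 against line 10949 (-0.17 over all genes), with 4 of 31 of the same sign (50.6% of all genes). Its r against line 10977 was -0.59 (-0.22 over all genes), with 6 of 31 of the same sign (48.8%). Against lines 10950 and 10986 it was -0.26 and -0.58 (-0.16 and -0.39 over all genes), so line 10980 was negative against every other line over all genes as well. For the other pairs r over members was 0.49 in 10949 and 10950 (0.55 over all genes), 0.48 in 10949 and 10986 (0.24) and 0.24 in 10950 and 10986 (0.07). It was 0.28 in 10950 and 10977 (0.43) and -0.07 in 10986 and 10977 (-0.32). Without Fads2 the first 3 values were 0.35, -0.39 and -0.30. These correlations describe genes of 1 pathway on arrays normalised together and carry no test.

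Both arrays of line 10980 contributed. Its vehicle array was below the other 4 vehicle arrays for 15 of 31 members (20.3% of all genes), and its 4-OHT array was above the other 4 4-OHT arrays for 13 (24.9%). Both held for 6 (1.97%): Hmgcs1, Mvk, Sqle, Lss, Srebf2 and Fads1. Hmgcs1, the synthase that makes HMG-CoA, shows the pattern. Hmgcs1 had log2 levels of 9.84, 9.59 and 9.18 on the fl vehicle arrays and 9.56, 9.62 and 9.75 on the fl 4-OHT arrays. Hmgcs1 in wt cells read 9.61 and 9.13 under vehicle and 9.14 and 9.82 under 4-OHT. The lowest vehicle level and the highest 4-OHT level were thus both from line 10980, and the 4 groups overlapped. Over the 10 arrays, members varied more than most genes, with a median SD of 0.286 against 0.174.

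In the fl lines, 2 of 31 members had a higher level and 4 a lower level under 4-OHT at an unadjusted p under 0.05, where 6.68% of all genes were higher and 5.65% lower, and none passed after adjustment. The median change was -0.13 over members and 0.00 over all genes, with 11 changes positive and 20 negative. By direction in all 3 fl lines, 2 members were higher (14.6% of all genes) and 10 lower (14.5%). The 2 were Hsd17b7 and Elovl6, and the 10 were Mvk, Pmvk, Mvd, Lss, Tm7sf2, Dhcr7, Insig1, Acaca, Fasn and Fads2. For Acaca this held for the probe set used but not for its second probe set. Changes of the members in the fl lines ran from -1.03 for Fads2 to 0.52 for Hsd17b7. Mean levels of myeloid marker lists differed between the same arrays, for progenitors as well as for more mature cells, though not every gene followed its list. Of 15 measured monocyte and macrophage markers of 17 listed, 12 lay above the level filter, and 3 of these passed as higher (Irf8, Vcan and Ctss). Ccr2 and C1qb of this list had negative mean changes, -0.16 and -0.05. The mean log2 level over the list was 8.06 to 8.26 on the fl vehicle arrays and 8.54 to 9.08 on the fl 4-OHT arrays. Late granulocyte markers read 8.07 to 8.51 and 8.48 to 9.07 in the same way, and 1 of 9 passed, Mmp8. Camp of this list had a negative mean change, -0.02, and Retnlg was below the filter. The 12 progenitor markers read 10.97 to 11.29 and 11.25 to 11.46, and none passed. Their list mean was higher under 4-OHT in each fl line. The largest mean changes were those of Cd34, 1.04, and Csf1r, 0.61, which is also on the monocyte and macrophage list. Mpo, Elane, Hoxa9 and Myb had negative mean changes, -0.01, -0.01, -0.18 and -0.07. The macrophage genes C1qa, Mrc1 and Ms4a7 were below the filter. The part of these cells in the members' values was not tested.

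The first steps of the mevalonate route held 3 of the 4 lower members. Median changes over its 6 measured genes were -0.18 for fl and 0.04 for wt lines. Pmvk, the kinase that phosphorylates mevalonate phosphate, had the smallest p. Pmvk had log2 levels of 7.41, 7.28 and 7.22 on the fl vehicle arrays and 6.93, 6.99 and 6.86 on the fl 4-OHT arrays. Pmvk in wt cells read 6.88 and 6.83 under vehicle and 6.99 and 6.94 under 4-OHT. The fl vehicle arrays were above all the others, and within the wt lines the 4-OHT arrays were the higher ones. Its change was -0.38 (SE 0.09, adjusted p = 0.175) in the fl lines, with a 95% interval of -0.60 to -0.15. Pmvk has a low level and drops out of the test where the filter is set at the 50th percentile. Mvk, the preceding kinase, ran at 9.26, 9.24 and 9.45 on the fl vehicle arrays and 9.01, 8.99 and 9.07 on the fl 4-OHT arrays, with no overlap. Mvk in wt cells read 9.15 and 8.96 under vehicle and 8.89 and 9.07 under 4-OHT. These overlapped. The change of Mvk in the fl lines was -0.29 (SE 0.11, adjusted p = 0.336). Mvd had log2 levels of 8.44, 8.56 and 8.87 on the fl vehicle arrays and 8.09, 8.41 and 8.19 on the fl 4-OHT arrays. Mvd in wt cells read 8.17 and 7.71 under vehicle and 8.14 and 8.38 under 4-OHT. Mvd, the decarboxylase that makes isopentenyl diphosphate, was thus lower in each fl line without overlap, and in the wt lines was almost level in 10977 and higher in 10980. Its change was -0.39 (SE 0.16, adjusted p = 0.4) for fl and 0.32 (SE 0.20, adjusted p = 1) for wt lines. Of the other genes of this stretch, Hmgcs1, the isomerase gene Idi1 and the farnesyl diphosphate synthase gene Fdps had mean changes in the fl lines with unadjusted p above 0.05. Idi1 has a second probe set, with a change of 0.27 against 0.29.

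From squalene to sterol, 11 enzymes had a median change of 0.02 for fl and -0.14 for wt lines, and they parted between lines. All 11 were lower in line 10977, 9 were lower in line 10949 and 9 were higher in line 10980. In line 10986, 7 were higher with a median of 0.48. Hsd17b7 had log2 levels of 9.83, 9.49 and 9.22 on the fl vehicle arrays and 10.16, 9.73 and 10.21 on the fl 4-OHT arrays. Hsd17b7 in wt cells read 10.00 and 9.79 under vehicle and 9.67 and 9.81 under 4-OHT. Hsd17b7, a 3-keto sterol reductase, was higher in every fl line under 4-OHT, though the vehicle array of 10949 exceeded the 4-OHT array of 10950. Its change was 0.52 (SE 0.17, adjusted p = 0.267) in the fl lines, and line 10986 alone gave 0.99. Lss had log2 levels of 9.14, 9.36 and 9.59 on the fl vehicle arrays and 8.60, 9.03 and 8.93 on the fl 4-OHT arrays. Lss in wt cells read 9.02 and 8.73 under vehicle and 8.46 and 9.39 under 4-OHT. Lss, which closes the lanosterol ring system, was lower in each fl line without overlap, while its wt lines ran in opposite directions. Its change in the fl lines was -0.50 (SE 0.22, adjusted p = 0.425). Tm7sf2 had log2 levels of 8.82, 8.04 and 8.02 on the fl vehicle arrays and 7.87, 7.85 and 7.92 on the fl 4-OHT arrays. Tm7sf2 in wt cells read 8.44 and 8.23 under vehicle and 8.0 and 8.18 under 4-OHT. Tm7sf2, a C14 sterol reductase, was lower in all 5 lines, and the vehicle and 4-OHT arrays did not overlap within either genotype. No other member was lower in all 5, which 2.36% of all genes were, so 1 of 31 is near the background. Its change in the fl lines was -0.42 (SE 0.18, adjusted p = 0.436), and most of it came from line 10949, at -0.96.

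For Cyp51 and Msmo1, the changes took both signs within each genotype. Cyp51, the lanosterol demethylase, had changes of -0.76, -0.08 and 0.53 in fl cells, then -0.82 and 0.50 in wt cells. Msmo1, a later enzyme that oxidises methyl groups of the sterol ring, had -0.51, 0.05 and 0.84, then -0.61 and 0.33. The signs of both genes were the same in every line except 10950. Fdft1 and Sqle, which make and oxidise squalene, Nsdhl and Ebp, which remodel the sterol ring, and Dhcr7, the last reductase on the route to cholesterol, did not reach an unadjusted p of 0.05 in any comparison. Sc5d had log2 levels of 11.10, 10.44 and 10.61 on the fl vehicle arrays and 10.80, 10.58 and 11.09 on the fl 4-OHT arrays. Sc5d in wt cells read 10.71 and 10.39 under vehicle and 10.39 and 10.49 under 4-OHT. Sc5d, the sterol C5 desaturase, was higher in the fl lines than in the wt lines under 4-OHT on every array, by 0.39 (SE 0.22, adjusted p = 0.661).

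Among the control genes, Insig1 set fl and wt arrays apart under vehicle but not fully under 4-OHT. Insig1 had log2 levels of 11.47, 11.53 and 11.46 on the fl vehicle arrays and 10.73, 11.46 and 11.20 on the fl 4-OHT arrays. Insig1 in wt cells read 10.63 and 10.30 under vehicle and 10.17 and 10.83 under 4-OHT. All 6 fl arrays but that of 10949 under 4-OHT were above every wt array, and vehicle and 4-OHT arrays overlapped within both genotypes. Its changes were -0.75, -0.07 and -0.26 in fl cells, then -0.46 and 0.53 in wt cells, and the mean over the fl lines was -0.36 (SE 0.21, adjusted p = 0.589). Insig2, its relative that is not known as a strong target of the sterol factors, went differently. Insig2 had log2 levels of 8.88, 8.22 and 8.18 on the fl vehicle arrays and 8.73, 8.52 and 8.83 on the fl 4-OHT arrays. Insig2 in wt cells read 8.63 and 8.74 under vehicle and 8.33 and 8.87 under 4-OHT. These groups overlapped, and the change in the fl lines was 0.27 (SE 0.17, adjusted p = 0.612). Srebf1 had log2 levels of 9.15, 9.34 and 9.57 on the fl vehicle arrays and 8.88, 9.51 and 9.12 on the fl 4-OHT arrays. Srebf1 in wt cells read 9.04 and 8.91 under vehicle and 8.94 and 9.21 under 4-OHT. Srebf1, the factor tied more to fatty acid genes, had its lowest fl level under 4-OHT in line 10949. Srebf2 had log2 levels of 9.87, 9.88 and 10.51 on the fl vehicle arrays and 9.77, 10.11 and 10.02 on the fl 4-OHT arrays. Srebf2 in wt cells read 10.06 and 9.74 under vehicle and 9.97 and 10.20 under 4-OHT. Srebf2, the factor tied more to cholesterol genes, had groups that overlapped, like Srebf1. Their changes in the fl lines were -0.18 (SE 0.15, adjusted p = 0.737) for Srebf1 and -0.12 (SE 0.17, adjusted p = 0.92) for Srebf2. Scap had log2 levels of 9.61, 9.91 and 9.97 on the fl vehicle arrays and 9.65, 9.79 and 9.65 on the fl 4-OHT arrays. Scap in wt cells read 9.85 and 9.94 under vehicle and 9.96 and 10.14 under 4-OHT. Scap, the escort of the factors, was a little higher under 4-OHT in both wt lines without overlap, by 0.16 (SE 0.13, adjusted p = 1), and on the 4-OHT arrays it was lower in every fl line than in either wt line. Stard4, a carrier that moves sterol between membranes, had no unadjusted p under 0.05.

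The 4 members with the widest range over the 10 arrays were fatty acid genes, namely Fads2 (3.42), Scd1 (2.45), Scd2 (1.96) and Fasn (1.53). For all 8 fatty acid genes the median change was -0.26 for fl and 0.18 for wt lines, and each was higher in line 10980. Fasn had log2 levels of 10.90, 11.51 and 11.82 on the fl vehicle arrays and 10.29, 11.32 and 10.67 on the fl 4-OHT arrays. Fasn in wt cells read 11.03 and 10.91 under vehicle and 11.00 and 11.53 under 4-OHT. Fasn, the fatty acid synthase, was lower in each fl line under 4-OHT, although the arrays of the 2 groups overlapped across lines. Its change was -0.65 (SE 0.20, adjusted p = 0.263) for fl and 0.29 (SE 0.25, adjusted p = 1) for wt lines. Elovl6, which lengthens palmitate, went the other way in the fl lines. Elovl6 had log2 levels of 11.63, 11.31 and 11.06 on the fl vehicle arrays and 11.75, 11.64 and 11.82 on the fl 4-OHT arrays. Elovl6 in wt cells read 11.10 and 10.46 under vehicle and 10.76 and 10.68 under 4-OHT. Each fl line was higher under 4-OHT, and the lowest fl 4-OHT array was just above the highest fl vehicle array. Its change was 0.41 (SE 0.16, adjusted p = 0.372) in the fl lines. Acly had log2 levels of 10.14, 10.27 and 10.65 on the fl vehicle arrays and 9.82, 10.37 and 10.26 on the fl 4-OHT arrays. Acly in wt cells read 10.20 and 10.36 under vehicle and 10.25 and 10.80 under 4-OHT. Acly, which supplies cytosolic acetyl-CoA, was higher in both wt lines by 0.25 (SE 0.17, adjusted p = 1). Acaca, which makes malonyl-CoA, was lower in all 3 fl lines with a mean change of -0.31. A second probe set of it gave -0.09, with -0.16, -0.30 and 0.20 in the 3 lines, so it was higher in line 10986.

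Fads1, Fads2, Scd1 and Scd2 are desaturases, which put double bonds into fatty acids. Fads2 had log2 levels of 9.89, 11.08 and 11.55 on the fl vehicle arrays and 8.47, 10.75 and 10.21 on the fl 4-OHT arrays. Fads2 in wt cells read 9.52 and 8.77 under vehicle and 8.13 and 10.65 under 4-OHT. Fads2, the delta-6 desaturase, spanned 3.42 on the log2 scale over the 10 arrays, the widest range among the members. Its changes were -1.42, -0.32 and -1.35 in the fl lines, then -1.39 in line 10977 and 1.88 in line 10980. Its SD over arrays was at percentile 99.8 of all tested genes. The mean change in the fl lines was -1.03 (SE 0.56, adjusted p = 0.542) and that in the wt lines 0.24 (SE 0.68, adjusted p = 1), the latter a mean of opposite values. Fads1 had log2 levels of 10.00, 10.20 and 10.35 on the fl vehicle arrays and 9.72, 10.45 and 9.97 on the fl 4-OHT arrays. Fads1 in wt cells read 9.84 and 9.80 under vehicle and 9.35 and 10.54 under 4-OHT. Fads1, the delta-5 desaturase next to it in the route, took the same sign as Fads2 in every line but 10950. Scd2 had log2 levels of 12.20, 12.67 and 13.09 on the fl vehicle arrays and 11.50, 12.81 and 12.26 on the fl 4-OHT arrays. Scd2 in wt cells read 11.90 and 11.54 under vehicle and 11.13 and 12.47 under 4-OHT. Scd2, a stearoyl-CoA desaturase, was lower in lines 10949, 10986 and 10977 and higher in the others. Scd1 had log2 levels of 6.39, 7.18 and 8.35 on the fl vehicle arrays and 6.30, 7.82 and 7.22 on the fl 4-OHT arrays. Scd1 in wt cells read 5.90 and 6.13 under vehicle and 6.21 and 6.30 under 4-OHT. Scd1, its relative, was close to the level filter of 6.23 in the wt lines and in line 10949, and its changes did not follow those of Scd2 in the wt line 10977. The changes in the fl lines were -0.13 (SE 0.24, adjusted p = 0.957) for Fads1, -0.46 (SE 0.33, adjusted p = 0.677) for Scd2 and -0.19 (SE 0.30, adjusted p = 0.94) for Scd1, and fl vehicle and fl 4-OHT arrays overlapped for all 3.

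**Figure D3:**
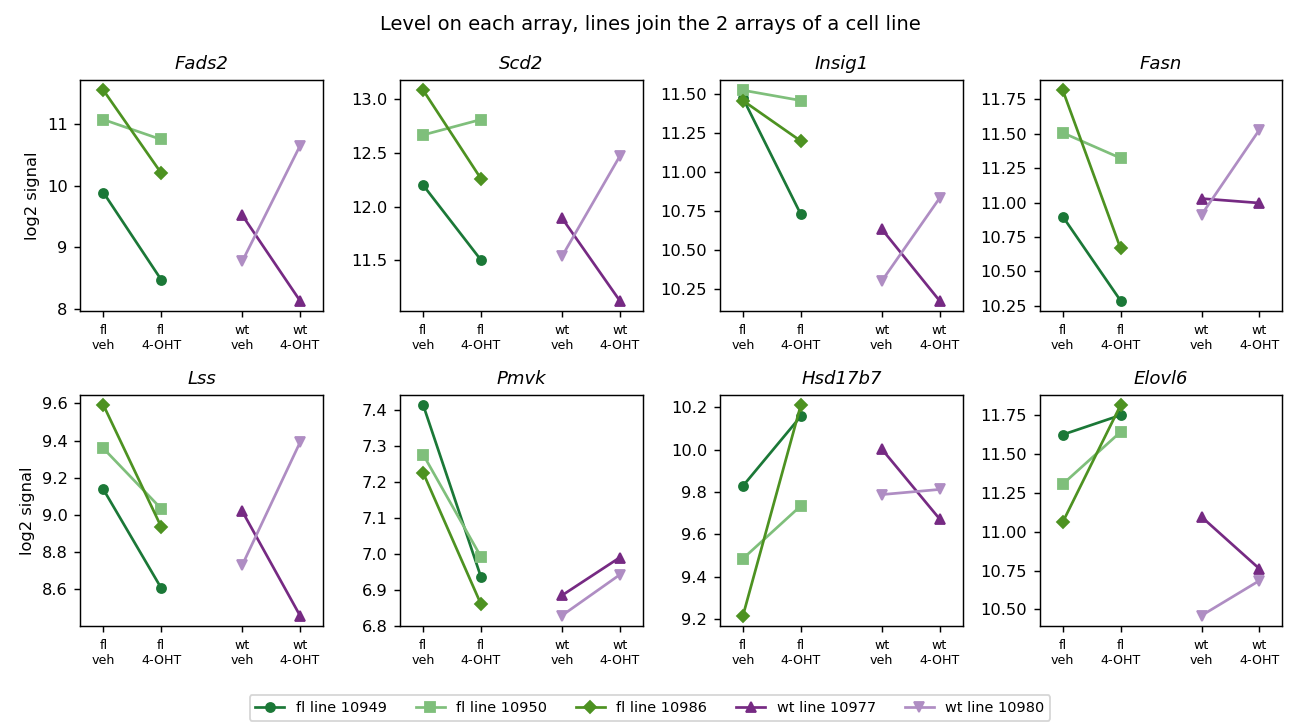
Log2 level on each array for selected members, with a panel per gene on its own scale. Colour and marker give the cell line (fl green, wt purple), and segments join its vehicle and 4-OHT arrays. Pmvk is higher on the 3 fl vehicle arrays than on any other array, and Fads2 runs from 8.13 to 11.55.

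Whether the 4-OHT change differed between genotypes was tested directly, and no member passed. The change was above both wt changes in all fl lines for 1 of 31 members (12.3% of all genes), Hsd17b7, and below both for 4 (11.4%), namely Pmvk, Mvd, Scap and Fasn. The difference, fl minus wt, was -0.49 (SE 0.15, adjusted p = 0.739) for Pmvk, -0.94 (SE 0.32, adjusted p = 0.769) for Fasn and -0.71 (SE 0.26, adjusted p = 0.788) for Mvd. For Hsd17b7 it was 0.68 (SE 0.26, adjusted p = 0.82). Pmvk was the member with every fl line lower and both wt lines higher, a pattern 3.49% of all genes had, and no member had the reverse, which 4.58% had. The median difference over members was -0.26, and it rested on line 10980, since without that line it was 0.18. The mean changes of the wt lines likewise had a median of 0.05, which was 0.33 without line 10977 and -0.32 without line 10980.

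Under vehicle, without 4-OHT, 22 of 31 members were higher in the fl than in the wt lines, as were 8497 of 15662 genes, with a median difference of 0.19 against 0.03 over all genes. All 6 with an unadjusted p under 0.05 were higher, where 3.71% of all genes were. The 3 fl arrays lay above both wt arrays for 11 members (18.6% of all genes) and below for 0 (12.1%). The 11 were Mvk, Pmvk, Mvd, Lss, Dhcr7, Srebf1, Insig1, Scd1, Scd2, Fads1 and Fads2. The 8 fatty acid genes, Scd1 included, had a median difference of 0.50, and all 8 were positive. Insig1 differed by 1.02 (SE 0.25, adjusted p = 0.325), 2.03-fold. Pmvk differed by 0.45 (SE 0.09, adjusted p = 0.247) and Mvd by 0.68 (SE 0.19, adjusted p = 0.366). Elovl6 differed by 0.55 (SE 0.21, adjusted p = 0.485). Scd1 is among the 22, the 6, the 11 and the 8, but it passed the level filter through the fl arrays, where it is high. Both wt vehicle arrays of Scd1 lay under the filter, so its difference is not given here and it adds no support to these counts or to the median of the 8. Without line 10980 the median difference over members was 0.06. The vehicle arrays of the fl lines also enter the 4-OHT change in those lines, so a gene high on these arrays, such as Pmvk, contributes to both.

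Under 4-OHT, 20 of 31 members were higher in the fl lines, as were 8832 of 15662 genes, with a median difference of 0.10 against 0.02 over all genes. Scd1 is among the 20, but it passed the level filter through the fl arrays, where it is high. Its wt 4-OHT arrays read 6.21 and 6.30, near the filter of 6.23, so Scd1 adds no support to this count or median. The fl arrays lay above both wt arrays for 4 members (12.6% of all genes), namely Cyp51, Sc5d, Stard4 and Elovl6, and below for 2 (14.2%), Tm7sf2 and Scap. Elovl6 had the smallest adjusted p of any member in the 5 comparisons, with a difference of 1.01 (SE 0.21, adjusted p = 0.0765), 2.02-fold and a 95% interval of 0.54 to 1.48. It missed the threshold, and with only the 4-OHT arrays in the fit it passed (adjusted p = 0.0312, with 0.00992 to 0.558 over all alternatives). Scap differed by -0.35 (SE 0.13, adjusted p = 0.321) and Insig1 by 0.63 (SE 0.25, adjusted p = 0.391). The median over members was -0.15 without line 10977 and 0.35 without line 10980, so its sign depended on which wt line was kept.

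**Figure D4:**
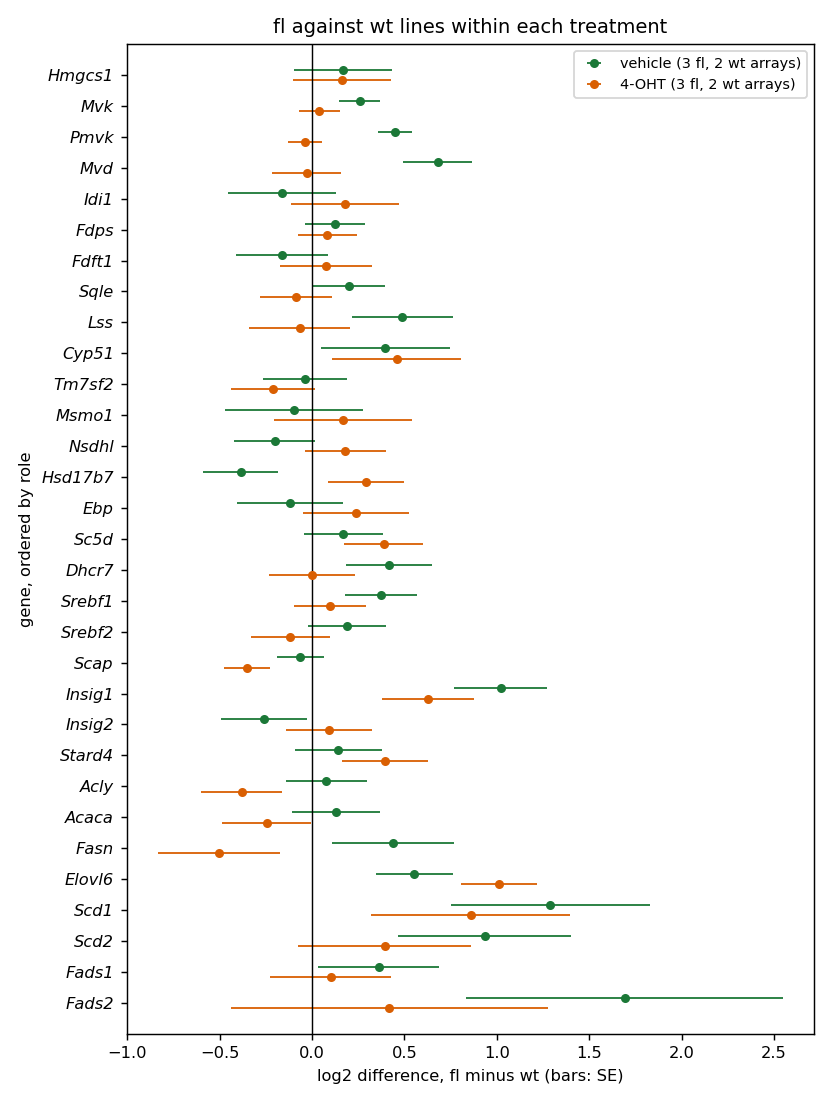
Difference between fl and wt lines for each measured member, in log2, under vehicle and under 4-OHT, with bars of 1 SE from limma. The difference under vehicle was positive for 22 of 31 members and that under 4-OHT for 20 of 31. Scd1 is drawn and counted, although both its wt vehicle arrays lay under the level filter.

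A further 93 genes of the same metabolism, in 6 lists, were read alongside, of which 82 had a probe set of their own and 78 were tested. None passed in any of the 5 comparisons. In the fl lines 10 had a higher and 7 a lower level under 4-OHT at an unadjusted p under 0.05. These were 21.8% of the 78, against 12.3% of all genes, of which 6.68% were higher and 5.65% lower. The median was 0.05 against 0.00 over all genes. The counts for each list below use the same p. Of 10 genes of SREBP processing and sterol sensing, 1 was higher and 2 lower. Sec24b, of the COPII coat that carries cargo from the endoplasmic reticulum, had levels of 9.28, 9.40 and 9.40 under vehicle and 8.70, 8.85 and 8.76 under 4-OHT, a change of -0.59 (SE 0.11, adjusted p = 0.109) with no overlap. Aup1 had a change of -0.36 (SE 0.09, adjusted p = 0.196). Of 10 carbon and NADPH supply genes, 0 were higher and 3 lower, among them Tkt, the transketolase, at -0.37 (SE 0.11, adjusted p = 0.247) and the mitochondrial carrier gene Slc25a10 at -0.37 (SE 0.12, adjusted p = 0.259).

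Among 13 genes of the isoprenoid side branches, 2 were higher and 0 lower, namely Dhdds at 0.30 (SE 0.11, adjusted p = 0.332) and Ggps1, which makes geranylgeranyl diphosphate, at 0.72 (SE 0.27, adjusted p = 0.348). Of 19 genes of fatty acid chain handling, 2 were higher and 0 lower, Hacd4 at 1.27 (SE 0.27, adjusted p = 0.129) and Elovl7 at 1.01 (SE 0.26, adjusted p = 0.18). Of 15 genes of sterol uptake, storage and efflux, 4 were higher and 1 lower. Lipa, the lysosomal acid lipase that frees cholesterol from its esters, was at 0.85 (SE 0.14, adjusted p = 0.0873), and the endocytic receptor gene Lrp1 was at 1.10 (SE 0.24, adjusted p = 0.134). Macrophages also express both, and the part of such cells in these values was not tested. Of 11 other genes linked to the sterol factors, 1 was higher and 1 lower, Fabp5 at 0.43 (SE 0.12, adjusted p = 0.213) and Pcyt2 at -0.47 (SE 0.16, adjusted p = 0.289).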

How the data were processed

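Total RNA of c-Kit+ cells was hybridised to 10 1-colour arrays. Per the submitters' processing notes, RMA gave the deposited intensity values, which are linear. Which RMA software was run is not stated there. RMA brings all arrays to one distribution, which can shrink differences shared by most genes. Signals near background have little precision, and arrays have no read depth.

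Of 35556 probe sets, 21789 carried 1 gene symbol in the platform annotation, 1621 several and 12146 none, and 21698 were matched to RefSeq (GRCm38.p6). A gene took its probe set with 1 symbol and the highest mean. Genes with a mean log2 of at least 6.23, the 25th percentile over every probe set, entered the test. Groups came from the labels. The 4-OHT changes were fitted on log2 values with limma 3.58.1 in R 4.3.3, taking cell line as a fixed block with a term per genotype, two-sided, with Benjamini-Hochberg adjustment over 15662 genes at 0.05. The fit had 3 residual degrees of freedom. The line follows the series design. As a check, deviations of a line's 2 arrays from their group means correlated at 0.78, 0.22 and -0.06 in lines 10949, 10950 and 10986. The wt lines gave 0.43, which is 1 value and not 2, since groups of 2 arrays have mirrored deviations. The fl and wt lines were compared by 4 group means, where line was a random block with statmod 1.5.0 (within-line correlation 0.165). The code was tested on simulated data.

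The members and lists were chosen with earlier results of these data known. Members described on each array were the 8 with the smallest unadjusted p in the fl lines, the 4 in each other comparison, and the related pairs of Insig, Srebf, Scd and Fads genes. Of the other lists, the 2 genes with the smallest p in the fl lines were named, and other genes were chosen after their values were seen. Alternatives covered the block, filter, scaling, spread, weights, pseudocount and leaving out lines or arrays.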

Additional observations from a re-analysis of the deposited data

Results flagged for a closer look

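The genes searched were the 31 members and the 78 other genes tested. For 10 of them, every fl line moved one way under 4-OHT and both wt lines the other. The difference of the change, fl minus wt on the log2 scale, was tested with limma, and none passed (adjusted p from 0.677 to 0.915). The difference was -0.49 for Pmvk, the only member among them, and -0.56 for Tkt. It was positive for Me2 (0.42), Ggps1 (0.93), Pggt1b (0.32), Elovl5 (0.48), Elovl7 (1.16), Npc2 (0.46), Lipa (0.96) and Erg28 (0.36). Of all tested genes, 3.49% had the pattern with lower fl lines and 4.58% that with higher fl lines, so the 10 together are near the background. No group holds 4 or more arrays, so single arrays were not tested as outliers.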

How the results depend on the processing

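Of 17 alternatives, those other than array weights and a fit to only the arrays compared left 0 members past the threshold in each of the 5 comparisons, including no replicate block and every fit without a line or array. With array weights, 13 members passed in the fl lines (12 lower and 1 higher), 1 for the difference (Pmvk, adjusted p = 0.0335, with 0.0335 to 1 over its alternatives), 17 under vehicle and 2 under 4-OHT. These weights gave line 10949 a weight of 5.71 against 0.162 for line 10986, and the weights of the group means fit did not converge, with 116 on 1 array. With array weights the change of Idi1 in the fl lines was -0.20 (adjusted p = 0.164, with 0.164 to 0.969 over its alternatives). With only the arrays compared, 1 member passed under 4-OHT, Elovl6.

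Counts over all genes moved more. In the fl lines, 24 passed, and 83 did with the line as a random replicate block, 28 with no replicate block, 8 with no level filter, 14 with the filter at the 50th percentile, 3 with centred arrays, 61 after quantile normalization, 3907 with array weights and 0 with only the arrays compared. For the difference, 0 passed, and 1 did with no replicate block, 1 with the random block, 1 without the vehicle array of line 10986 and no block, and 359 with array weights. Under vehicle, 3 passed, and 0 did with no filter, the 50th percentile, quantile normalization or only the arrays compared, and 6237 with array weights. Under 4-OHT, 101 passed, and 66 did with centred arrays, 1106 with array weights and 41 with only the arrays compared.

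Leaving out 1 line at a time, the genes passing ranged from 0 to 440 in the fl lines (440 without 10986), 0 to 20 for the difference (20 without 10986), 0 to 15 under vehicle (15 without 10977) and 0 to 51 under 4-OHT (0 without 10980). Median member changes ranged from -0.30 to -0.12 in the fl lines, -0.32 to 0.33 in the wt lines and -0.48 to 0.18 for the difference. The median fl minus wt difference ranged from 0.06 to 0.35 under vehicle and -0.15 to 0.35 under 4-OHT. Of 155 member values, 86 had another sign in at least 1 alternative.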
